A study of Sus scrofa with 55 samples.

Results

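The nuclear-encoded genes of oxidative phosphorylation were described in single pig oocytes (Sus scrofa). Members were all rows of the deposited count table whose pig Ensembl symbol begins with NDUFA, NDUFB, NDUFC, NDUFS or NDUFV and a number, with UQCR, with COX and a number from 4 to 8, or with ATP5, together with SDHA, SDHB, SDHC, SDHD and CYC1. This gave 64 members among 25880 rows: 29 of complex I, 4 of complex II, 7 of complex III, 13 of complex IV and 11 of complex V. The rule used symbols only and no measured value, though it was set with earlier results of these data known.

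Oxidative phosphorylation makes ATP in the inner mitochondrial membrane. Complexes I to IV (NADH dehydrogenase, succinate dehydrogenase, the cytochrome bc1 complex and cytochrome c oxidase) pass electrons to oxygen and, complex II excepted, pump protons, and complex V (ATP synthase) uses the proton gradient. Most subunits are encoded in the nucleus and a few in mitochondrial DNA, and an oocyte holds very many mitochondria, on which its maturation and the early embryo depend.

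Cytoplasmic RNA of 55 single wild-type oocytes was read with Smart-seq2, a full-length cDNA protocol with 16 amplification cycles, after the nuclear DNA had been separated. The oocytes came from antral follicles of 5 stages, with 11, 12, 11, 11 and 10 oocytes in order from stage 1 to stage 5. Gilt 803 gave 20 oocytes, gilt 801 gave 12 (none at stage 5), gilt 205 gave 9 and gilt 201 gave 14. All gilts were pubertal Landrace and Yorkshire pigs of 208 to 210 days and had received 5 IU of PMSG (pregnant mare serum gonadotropin), which drives follicle growth, 48 h before the ovaries were taken, so no group is free of hormone. The animal is the replicate, and counts were summed per gilt and stage into 19 sums for every test.

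Total counts per oocyte ranged from 151104 to 38282850, and the 13 mitochondrially encoded protein genes took 2.104% to 91.8% of them. In 12 libraries more counts fell on granulosa and cumulus markers than on oocyte genes; these are called granulosa-rich, and 11 of them came from gilt 803 and 1 from gilt 801. All 12 oocyte genes of the marker list had counts in them, at a summed 35.0 to 3531 CPM (counts per 1000000 counts of a library) in granulosa-rich libraries, against 661 to 55415 CPM in the other 43. Of 16 granulosa and cumulus markers, 15 had counts in granulosa-rich libraries and 15 in the others, with AMH at 0 in both; their sum ran from 3511 to 27685 CPM in granulosa-rich libraries, against 19.4 to 11069 CPM elsewhere. Oocyte genes were thus lowest in those 12 libraries as a group, and the stage and gilt comparisons below are also given without them.

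Of the 64 members, 61 had counts. CYC1 (cytochrome c1 of complex III), NDUFA2 and NDUFB7 (accessory subunits of complex I) had 0 counts in all 55 oocytes, which allows, at 3 counts, up to 0.0784 CPM in the deepest oocyte and up to 19.9 CPM in the shallowest. These limits cover counting error only, and the annotation used for counting is not known, so a 0 says that no read was assigned to that gene ID. Only COX5B, COX6A1, COX7A2L and COX7C had counts in every oocyte. At the other end, COX6B2 had counts in 26 oocytes, COX4I2 and COX6A2 in 28 each, NDUFS1 in 29, NDUFA4L2 and NDUFV1 in 34 each and UQCRC2 in 35. Between 27.1 and 60.98 members, with a median of 55.7, were detected at an equal depth of 1000000 non-mitochondrial counts in the 51 oocytes that reach it; the unthinned range was 36 to 61. Small subunits of these complexes often have processed pseudogenes, and how reads shared between copies were counted is not stated, so levels of single members are uncertain to that extent.

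The summed level of the members varied widely among oocytes of every stage. It ran from 337 to 22360 CPM over the 55 oocytes. The lowest, median and highest oocyte of stage 1 had 394, 3917 and 14981 CPM. In stage 2 these were 337, 1597 and 10582 CPM, in stage 3 they were 556, 1340 and 13738 CPM, in stage 4 they were 513, 9800 and 15728 CPM, and in stage 5 they were 455, 1906 and 22360 CPM. The ranges of all stages overlapped almost fully. As means over gilts, stages 1 to 4 had 5098 ± 4471, 3788 ± 3756, 4097 ± 3562 and 6082 ± 6631 CPM (SD, n = 4 each), and stage 5 had 3804 ± 3925 CPM (SD, n = 3). The median at stage 4 stood beside 4 granulosa-rich libraries of 11 and a median mitochondrially encoded share of 9.05%, against 50.98% to 76.1% at the other stages. Without the granulosa-rich libraries the means from stage 1 to stage 5 were 4429, 3416, 2447, 3238 and 1483 CPM. Gilt 803 had no library left at stage 4, so that mean is over the other gilts. The stage 1 mean includes the single oocyte of gilt 205, at 11782 CPM.

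**Figure D1:**
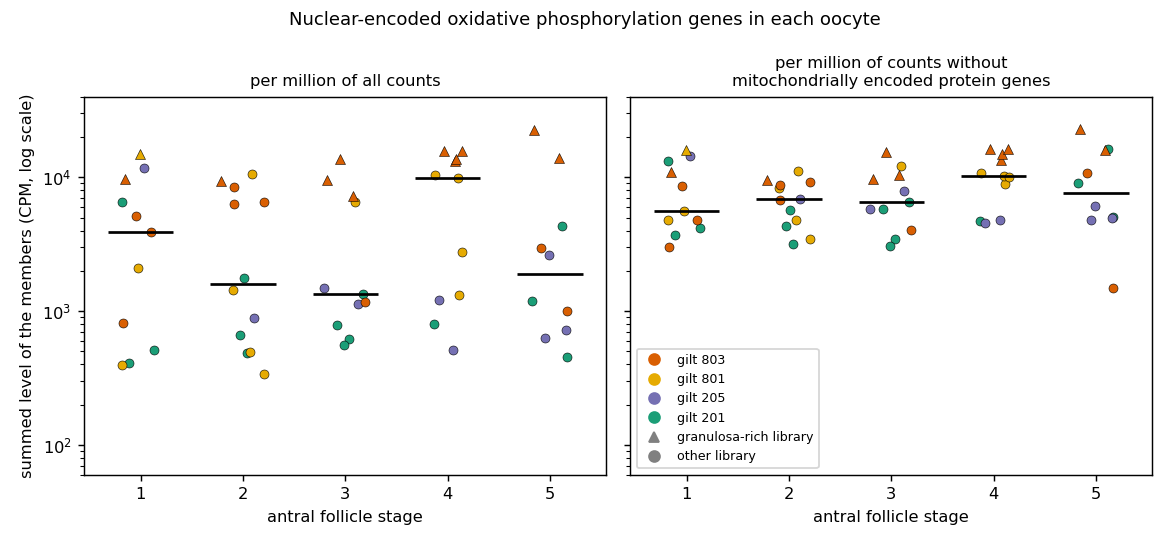
Summed level of the members in each oocyte (points, log scale) by antral follicle stage, in CPM of all counts (left) and in nuclear CPM, which leaves the 13 mitochondrially encoded protein genes out of the total (right). Colours are gilts, triangles are granulosa-rich libraries and bars are stage medians; levels run from 337 to 22360 CPM on the left and from 1496 to 23060 nuclear CPM on the right.

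That spread ran with the mitochondrially encoded RNA. The members summed to 6280 to 22360 CPM in the 13 oocytes with under 10% of counts from mitochondrially encoded genes, to 999 to 13886 CPM in the 12 oocytes with 10% to 60%, and to 337 to 4302 CPM in the 30 oocytes with 60% or more. The first and the last range did not overlap. Over the 55 oocytes log2 summed CPM and the mitochondrially encoded percent had a Pearson r of -0.93 and a Spearman rho of -0.91, and within gilts r was -0.83 for gilt 803, -0.93 for gilt 801, -0.98 for gilt 205 and -0.88 for gilt 201. Both quantities are shares of the same total, so part of this relation is arithmetic. In nuclear CPM, that is CPM of the counts without mitochondrially encoded protein genes, the members held 1496 to 23060 and r was -0.63 over the 55 oocytes, and -0.39 over the 43 that were not granulosa-rich.

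The members' level also ran with the granulosa markers. In the 12 granulosa-rich libraries the members summed to 7237 to 22360 CPM, with a median of 13696 CPM, against 337 to 11782 CPM and a median of 1219 CPM in the other 43. In nuclear CPM these were 9555 to 23060, with a median of 15246, in granulosa-rich libraries, against 1496 to 16319, with a median of 5750, elsewhere. The coefficient of log2 summed CPM with log2 granulosa and cumulus CPM + 1 was 0.82 over 55 oocytes and 0.67 over the 43. Their part in the members' level was not tested. With log10 total counts r was -0.23.

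**Figure D2:**
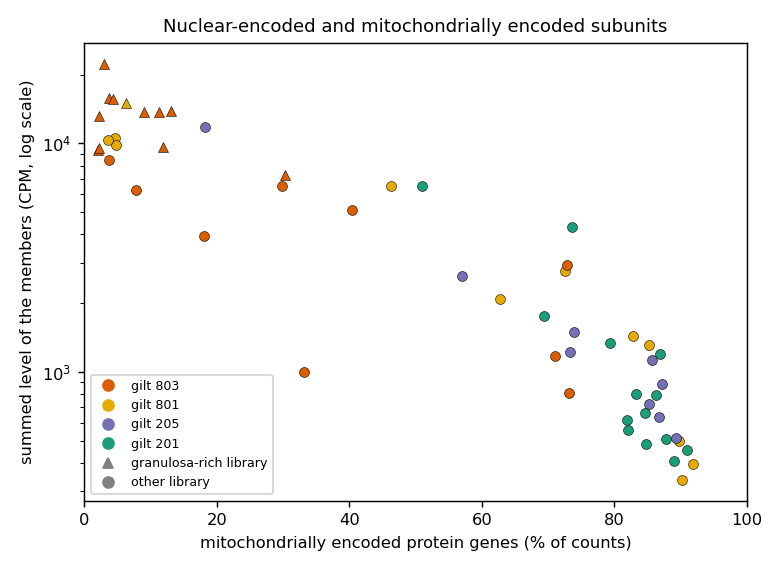
Summed level of the members (CPM, log scale) against the percent of counts from the 13 mitochondrially encoded protein genes, 1 point per oocyte, coloured by gilt, with granulosa-rich libraries as triangles. Oocytes under 10% lie at 6280 CPM or more and oocytes at 60% or more lie at 4302 CPM or less.

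Mitochondrially encoded subunits thus outnumbered nuclear-encoded ones by counts in every oocyte, by ratios from 1.36 (stage 5, gilt 803, oocyte 1) to 2679 (stage 2, gilt 801, oocyte 1). From stage 1 to stage 5 the median ratio was 78.9, 485, 593, 6.63 and 290. Within complexes, the 7 mitochondrially encoded subunits of complex I had a median of 309 counts for each count of its nuclear members, the 3 of complex IV had 416, cytochrome b of complex III had 693 and the 2 of complex V had 147.

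Complexes I, IV and V together held most member counts. As means over the 19 sums, complex I held 29.0 ± 2.47% of member counts, complex II 6.25 ± 2.46%, complex III 6.21 ± 1.61%, complex IV 33.5 ± 4.52% and complex V 25.05 ± 2.34% (SD over sums, which share 4 animals). By stage, complex I held 29.2%, 29.6%, 28.7%, 27.5% and 30.5% from stage 1 to stage 5, and complex IV held 30.2%, 32.9%, 34.2%, 35.5% and 35.1%. SDs over gilts at a stage were 1.12 to 3.96 percentage points for complex I and 2.05 to 6.69 for complex IV.

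CPM are not scaled for gene length, so the order of medians given for each complex is one of counts. Levels are set against each other per length only by the ranks and a share further on. The isoform shares and the ratios of mitochondrially encoded to nuclear-encoded subunits are of counts, not scaled for length.

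Complex I oxidises NADH with a core of catalytic subunits (among them NDUFS1, NDUFS3, NDUFS8, NDUFV1 and NDUFV2) and many accessory ones. Its 29 members summed to 519, 470, 450, 2604 and 542 CPM at the median oocyte of stages 1 to 5. NDUFA6 and NDUFB2, accessory subunits, had the most counts at the median oocyte, 37.5 and 34.0 CPM. NDUFA6 ran from 0 to 456 CPM, and its stage medians were 33.2, 27.2, 48.7, 84.5 and 23.0 CPM. NDUFS1, the largest iron-sulfur subunit, had a median of 0.0826 CPM and reached 421 CPM in 1 stage 2 oocyte of gilt 803.

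NDUFA4, which keeps a complex I name but is a subunit of cytochrome c oxidase in human cells, had a median of 12.4 CPM and a highest value of 586 CPM. Its paralogue NDUFA4L2, a hypoxia-induced gene in human cells, was low: 0 to 8.11 CPM, with counts in 34 oocytes. Together with NDUFA4, NDUFA4L2 took a median of 0.778% of the pair's counts over the 50 oocytes with either, 0.0403% in the 12 granulosa-rich libraries and 3.19% in the 38 others. It exceeded 50.0% in 3 oocytes, of which none was granulosa-rich.

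Complex II links the tricarboxylic acid cycle to the chain and has no mitochondrially encoded subunit. SDHB, its iron-sulfur protein, had the most counts, with a median of 58.8 CPM (0 to 728), and SDHA, the flavoprotein that oxidises succinate, had 17.1 CPM (0 to 536). SDHC, a membrane anchor, had the fewest at 3.05 CPM. SDHA sums stood at 14.2 CPM in gilt 803, 13.0 CPM in gilt 205 and 6.36 CPM in gilt 201 at stage 5, against 27.4, 240 and 42.6 CPM in the same gilts and 103 CPM in gilt 801 at stage 1. The stage 5 sums of SDHA lay below all 4 stage 1 sums in CPM, and the test below did not call the gene.

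In complex III, UQCRC1, a core protein, and UQCR10, a small subunit, led with medians of 22.8 and 22.4 CPM. UQCRC2, the partner of UQCRC1, had a median of 0.535 CPM and stage medians of 5.45, 0.121, 0.191, 6.41 and 0 CPM. Complex V was led by ATP5F1C (the gamma subunit of the rotor) and ATP5MC1 (a c subunit of the membrane ring), with medians of 51.02 and 50.9 CPM, and ATP5MC3, another c subunit gene, had the fewest counts at 9.02 CPM. ATP5F1A, the catalytic head's alpha subunit, reached 2419 CPM in stage 5 oocyte 2 of gilt 803, the highest CPM of any member in any oocyte. ATP5IF1, which inhibits the enzyme when it would run backwards, had stage medians of 26.7, 38.7, 40.5, 147 and 10.3 CPM, with stage 5 oocytes between 0.102 and 141 CPM and stage 1 oocytes between 0 and 324 CPM.

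Complex IV, the terminal oxidase, has tissue isoforms of several subunits, and the ubiquitous forms held most counts here. COX7A2L, a COX7A-like protein that joins complexes III and IV, had a median of 130 CPM, then came COX8A with 82.7 CPM, COX6A1 with 76.4 CPM, COX7C with 72.2 CPM, COX5B with 59.1 CPM, COX7B with 53.6 CPM, COX4I1 with 46.1 CPM and COX7A2 with 25.9 CPM. COX7A1, the heart and muscle form of COX7A2, was present at a median of 8.50 CPM with counts in 48 oocytes, and took a median of 20.6% of the pair's counts. COX6A2, the muscle form of COX6A1, had counts in 28 oocytes and took a median of 0.108% of its pair's counts, but 89.7% in 1 stage 1 oocyte of gilt 201. COX6B2, known from testis, had counts in the fewest oocytes, at 0 to 11.7 CPM with a median of 0.

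Within an oocyte, levels were set against each other per length, by the rank among 57 members that have counts and a row in the deposited length-scaled table. COX8A stood first, at a median rank of 2, then NDUFB9 at 5, ATP5MK and ATP5PO, 2 parts of ATP synthase, at 6 each, and COX4I1 at 7. NDUFA4L2 at 54, COX6B2 at 53 and COX6A2 at 52 closed the order. The interquartile range of ranks was 1 to 3.5 for COX8A and 3.5 to 10.5 for NDUFB9, so COX8A stood apart from its neighbours only in that the ranges met, and the following members overlapped. COX8A took a median of 8.85% of the members' length-scaled value.

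Members moved together to differing degrees. In nuclear CPM, a member's log2 level was set against the log2 sum of the other members over 55 oocytes. The coefficient was highest for COX7C (0.83), COX4I1 (0.70), NDUFB10 (0.68) and COX5B (0.67). It was -0.22 for NDUFA4L2, -0.17 for COX6B2 and -0.05 for COX7A2L. Over the 43 oocytes that were not granulosa-rich, COX7C had 0.74 and COX7A2L 0.22. These oocytes share 4 animals and a scaling total, and the coefficients are descriptions.

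**Figure D3:**
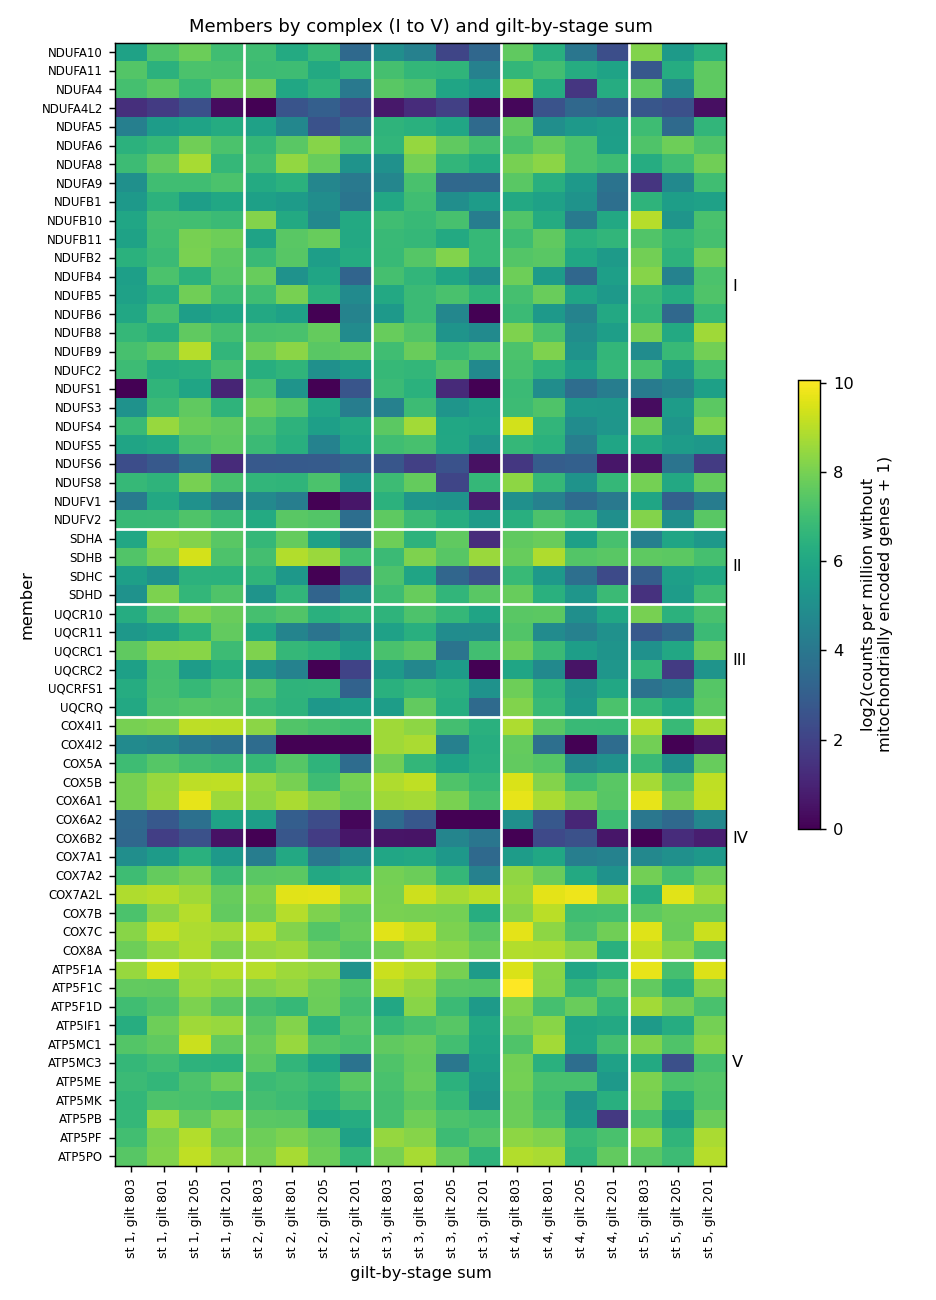
Level of the members with counts, 1 left out, in the 19 gilt-by-stage sums, as log2 of nuclear CPM plus 1; members run down by complex, and sums run across by stage with gilt 803 first. COX4I2 is dark at stage 2 outside gilt 803, and NDUFA4L2, NDUFS6, COX6A2 and COX6B2 stay low in nearly all sums.

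The study's order of stages was tested first from end to end. Between stage 5 and stage 1 no member passed, with 0 of 61 called by edgeR's quasi-likelihood test at a Benjamini-Hochberg adjusted p under 0.05 and 0% of the 15637 genes called (0 of 61 members and 840 genes had an unadjusted p under 0.05; DESeq2 called 0 members and 364 genes, limma-voom 0 and 0). The median fitted log2 change of the members was 0.05, with 31 positive and 30 negative, against -0.27 over all genes. Without the granulosa-rich libraries 10 of 61 members were positive and 0 called, with a median of -0.38 against -0.19 over all genes. With 1 gilt left out the members' median was 0.61 without gilt 205, but -0.40 without gilt 201, -0.02 without gilt 801 and -0.12 without gilt 803. By complex the medians were 0.16 for complex I, -0.58 for complex II, -0.73 for complex III, -0.02 for complex IV and 0.24 for complex V. Within gilts the members' median difference was 1.15 in gilt 803, -1.61 in gilt 205 and 0.41 in gilt 201. The animals thus did not share a direction, but the negative value rests on a stage 1 sum of 1 oocyte.

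The 4 members with the smallest p were SDHA with a log2 change of -1.98 ± 1.03, COX4I2 with -3.41 ± 1.84, COX6B2 with -5.25 ± 3.19 and NDUFB8, an accessory subunit of complex I, with 1.18 ± 0.87 (± SE). Their adjusted p-values from edgeR were 0.927, 0.930, 0.933 and 0.963. The COX4I2 value turned to 2.58 with gilt left out of the model.

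Along the whole series no member was called. The trend over stages called 0 of 61 members and 0.0128% of all genes, which is 2 genes (unadjusted p under 0.05: 0 members and 900 genes; DESeq2 called 0 members and 161 genes, limma-voom 0 and 0). The median slope was -0.01 log2 per stage against -0.06 over all genes, with 30 members positive. Without the granulosa-rich libraries 6 of 61 slopes were positive and 0 members were called, with a median of -0.14 against -0.05 over all genes. With 1 gilt left out the median slope ran from -0.09 without gilt 803 to 0.14 without gilt 205. The smallest p-values were those of COX6B2 (-1.10 ± 0.70), UQCRC1 (-0.25 ± 0.18), NDUFB9 (-0.23 ± 0.17) and NDUFS5 (-0.23 ± 0.17). The F test over all stages called 0 members and 0% of genes. It had 2 members with an unadjusted p under 0.05, COX4I2 at 7.18e-05, second of the 15637 genes, and NDUFA10 at 0.0228, and an adjusted p of 0.456 for COX4I2. DESeq2 called COX4I2 among 47 genes in that test, and limma-voom called 0 members and 2 genes; without the granulosa-rich libraries edgeR called 0 of each. The test of slopes that differ between gilts called 0 members and 0% of genes, with 1 member, ATP5MC3, at an unadjusted p under 0.05 (DESeq2 called 0 members and 5 genes, limma-voom 0 and 0).

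Neighbouring stages gave no called member either: 0 of 61 and 0% of genes by edgeR in each of the 4 comparisons. Stage 2 against stage 1 had 8 positive and 53 negative members, with a median of -0.58 against -0.50 over all genes, and 2 with an unadjusted p under 0.05 (1034 genes): COX4I2 and UQCRC2 (-3.28 ± 1.47). Stage 3 against stage 2 had 48 positive and 13 negative members, with a median of 0.41 against 0.17, and 5 with an unadjusted p under 0.05 (728 genes), COX4I2 and SDHD (2.57 ± 0.91) first. Stage 4 against stage 3 had 10 positive and 51 negative, with a median of -0.48 against -0.12, and 1 such member, COX4I2 (646 genes). Stage 5 against stage 4 had 48 positive and 13 negative, with a median of 0.61 against 0.16, and 1 such member, ATP5F1A (1.89 ± 0.86; 466 genes). Without granulosa-rich libraries stage 2 against stage 1 had 22 positive members and a median of -0.17, and stage 3 against stage 2 had 23 positive members and a median of -0.20, the opposite sign. Stage 4 against stage 3 then had 6 positive members and a median of -0.61, and stage 5 against stage 4 had 49 and a median of 0.48. Gilt 803 had no stage 4 sum in that setting, since all its stage 4 libraries were granulosa-rich. With gilt 801 absent from stage 5, stage 5 against stage 4 was then paired only in gilts 205 and 201. Without gilt 201 the median of stage 5 against stage 4 turned to -0.10, with 28 positive. In stage 2 against stage 1 DESeq2 called COX4I2 and no other member, among 413 genes (2.64%). In stage 3 against stage 2 it again called COX4I2 alone of the members, among 317 genes (2.03%). In the later pairs DESeq2 called 0 members, beside 263 genes (1.68%) and 211 genes (1.35%). Limma-voom called 0 members and 0 genes in all 4.

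**Figure D4:**
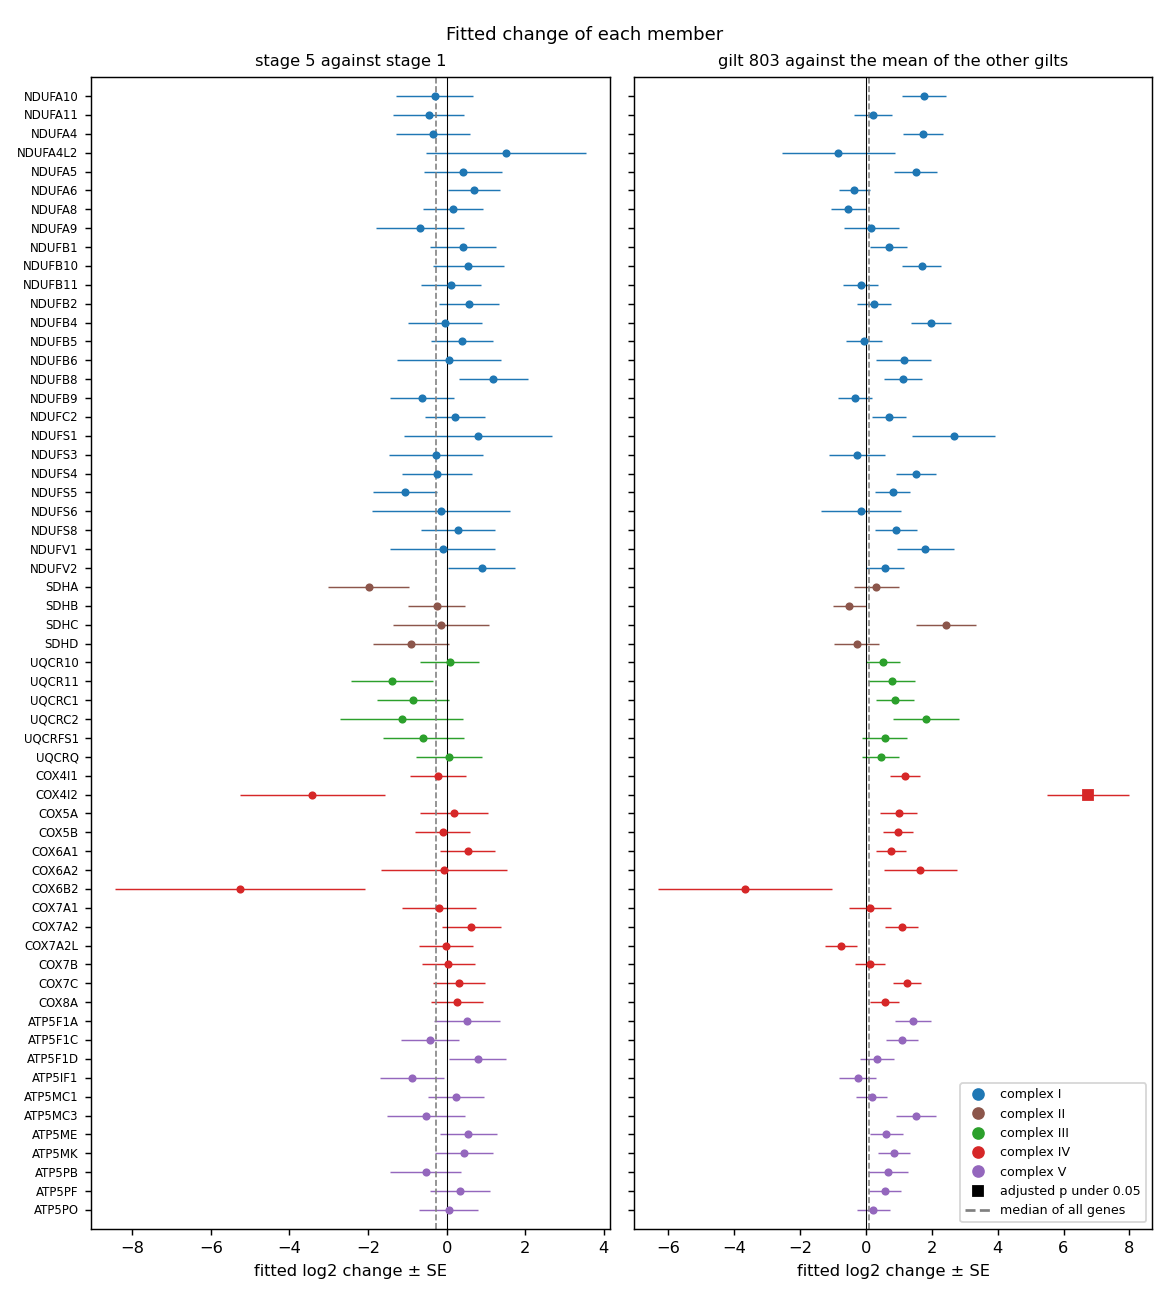
Fitted log2 change ± SE of the tested members, 1 left out, in stage 5 against stage 1 (left) and in gilt 803 against the mean of the other gilts (right), coloured by complex; the dashed line is the median of all genes and a square marks an adjusted p under 0.05. On the left the members scatter around 0, and on the right most are positive (48 of all 61 tested), with COX4I2 at 6.73 alone past the threshold.

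COX4I2 had the smallest p of all members in the F test. It encodes the alternative form of subunit 4 of cytochrome c oxidase, known in human and mouse from lung and from oxygen-sensing cells, while COX4I1 is the form of most tissues. From stage 1 to stage 5, COX4I2 had counts in 5 of 11, 2 of 12, 8 of 11, 8 of 11 and 5 of 10 oocytes. The lowest value was 0 in every stage, the medians in the same order were 0, 0, 9.24, 13.8 and 0.117 CPM, and the highest values were 41.8, 14.6, 491, 464 and 525 CPM. Every stage thus held oocytes at 0 beside oocytes with counts.

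By gilt, the stage 1 sums were 11.6 CPM in gilt 803, 7.27 CPM in gilt 801, 12.6 CPM in gilt 205 and 3.03 CPM in gilt 201. At stage 2 gilt 803 had 10.1 CPM and the other 3 gilts had 0. At stage 3 the sums were 304, 240, 4.14 and 13.3 CPM in the same order of gilts, and at stage 4 they were 194, 8.96, 0 and 1.80 CPM. At stage 5 gilt 803 had 177 CPM, gilt 205 had 0 and gilt 201 had 0.0745 CPM. Gilt 803 was the highest in 4 of the 5 stages.

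The fitted log2 changes of COX4I2 were -8.11 ± 1.90 in stage 2 against stage 1 (edgeR adjusted p = 0.692), 10.80 ± 1.99 in stage 3 against stage 2 (0.165) and -4.73 ± 1.42 in stage 4 against stage 3 (edgeR adjusted p = 0.998). The first 2 set sums of 0 against sums with counts, so the fitted size rests on edgeR's prior count and is no bound. The call of stage 3 against stage 2 changed with the tool: the adjusted p was 7.61e-09 with DESeq2, 0.439 with limma-voom and 8.34e-09 in edgeR without a filter on low counts. Without gilt 803 it was 0.00499, at a log2 change of 14.93, and without the granulosa-rich libraries it was 1, at 12.84.

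COX4I1 was detected more widely and was not called in any comparison by edgeR on the gilt-by-stage sums. In gilt 803 against the other gilts, COX4I1 was called with each oocyte as a library and by limma-voom, so that result changed with the setting. It had counts in 54 oocytes, at 0 to 1364 CPM, with stage medians of 59.1, 25.3, 42.1, 67.9 and 54.9 CPM. Of the counts of both isoforms, COX4I2 held a median of 0%, 0%, 44.4%, 8.85% and 0.0764% from stage 1 to stage 5. The share exceeded 50.0% in 11 oocytes, 5 of them at stage 3, and none at stage 2; the single one at stage 1 (gilt 803, oocyte 2) rests on 1 COX4I2 count and 0 COX4I1 counts. These oocytes included libraries of all 4 gilts, and 7 of the 11 were not granulosa-rich.

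**Figure D5:**
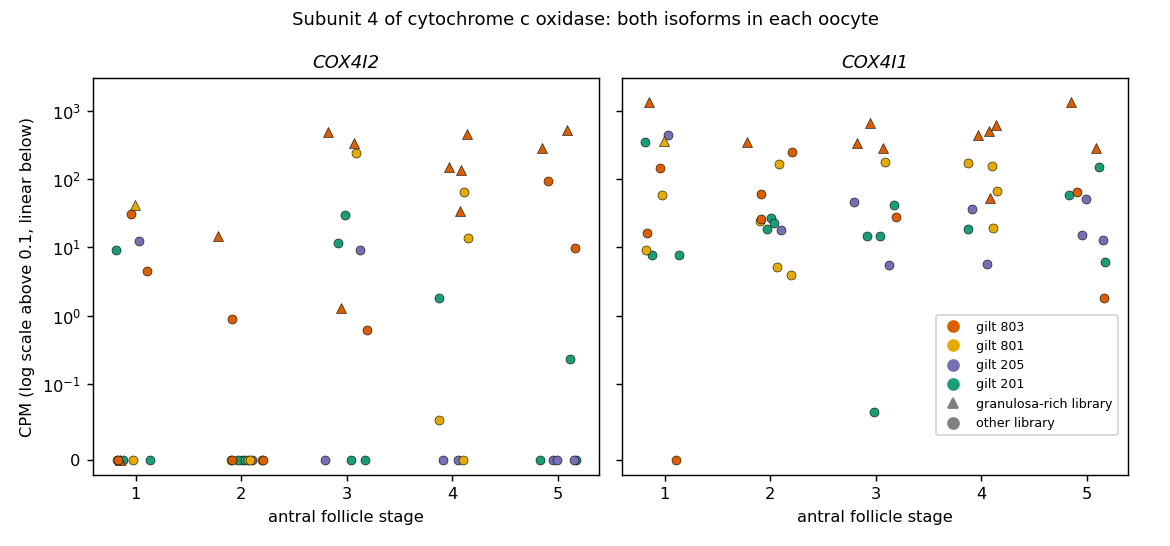
COX4I2 (left) and COX4I1 (right) in each oocyte, in CPM on an axis that is logarithmic above 0.1 and linear below, by antral follicle stage; colours are gilts and triangles granulosa-rich libraries. COX4I2 is at 0 in 27 oocytes and highest in granulosa-rich libraries of gilt 803, up to 525 CPM, while COX4I1 has counts in 54 oocytes.

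COX4I2 counts lay mostly in granulosa-rich libraries. The 12 such libraries held 84.4% of all its counts, at 0 to 525 CPM with a median of 143 CPM and counts in 11, against 0 to 240 CPM with a median of 0 and counts in 17 of the other 43. The highest of these others, stage 3 oocyte 1 of gilt 801, also had 11069 CPM of granulosa and cumulus markers. COX4I1 had 63547 of its 105128 counts in the 12 granulosa-rich libraries. The coefficient of log2 COX4I2 CPM + 1 with the granulosa and cumulus markers was 0.80 over 55 oocytes, 0.74 within gilt 803 and 0.73 within the other gilts. With the pericyte and smooth muscle markers it was 0.56, 0.36 and 0.40 in the same groups. The part of such cells in the COX4I2 level was not tested.

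Gilt 803 was set against the mean of the other 3 gilts in the same model, a comparison of animals and not of a treatment. This gilt was chosen because it had already been seen to stand apart in these data. The p-values here are therefore not those of an animal picked beforehand. The side of gilt 803 holds 1 animal, whose 5 stage sums stand in for replicates. SE and p here thus cover the spread between sums and not between animals. Here 1 of 61 members, COX4I2, rose, and 0 fell, beside 4.4% of genes called higher and 0.281% called lower. COX4I2 had a log2 difference of 6.73 ± 1.25 (edgeR adjusted p = 0.00191), with gilt 803 highest in 4 of 5 stages. The members' median was 0.69, with 48 positive and 13 negative, against 0.11 over all genes. A total of 17 members, all higher in gilt 803, had an unadjusted p under 0.05, which is 27.9% of members beside 17.3% of all genes.

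Those 17 comprised 8 members of complex I, SDHC, 5 of complex IV and 3 of complex V, and none of complex III. After COX4I2 the smallest p-values belonged to NDUFB4 with 1.97 ± 0.61 (edgeR adjusted p = 0.0649), COX7C with 1.25 ± 0.43 (0.101) and NDUFB10 with 1.69 ± 0.59 (edgeR adjusted p = 0.108). NDUFB4 and NDUFB10 are accessory subunits of complex I's membrane arm and COX7C a small subunit of complex IV. COX7C sums in gilt 803 were 132, 494, 595, 770 and 550 CPM from stage 1 to stage 5, against 99.3, 37.7, 30.7, 39.5 and 96.6 CPM in gilt 201. At stage 1, however, gilt 205 (373 CPM) and gilt 801 (176 CPM) stood above gilt 803. In nuclear CPM COX7C had 314, 535, 776, 807 and 755 in gilt 803 from stage 1 to stage 5. Gilt 201 then had 413, 209, 179, 235 and 612, and gilt 205 had 456, 166, 267, 150 and 218. Gilt 801 had 575, 293, 590 and 329 from stage 1 to stage 4. On this scale gilt 803 was the lowest at stage 1.

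In this comparison the marker lists of other cells did not share a direction. Of the granulosa and cumulus markers 6 of 15 tested rose in gilt 803 and 0 fell, with a median log2 difference of 3.13 and a summed level of 29.1 to 27685 CPM (median 5457) in gilt 803, against 19.4 to 11705 CPM (median 127) in the other gilts. Of the oocyte genes 0 of 12 rose and 5 fell (median -1.54), and of the mitochondrially encoded genes 0 of 13 rose and 6 fell (median -2.89). One pericyte and smooth muscle marker of 9 rose, RGS5 with 6.57 ± 1.24, but that list had 4 positive and 5 negative and a median of -0.20. Its sum ran from 9.09 to 2365 CPM in gilt 803, with KCNJ8 at 0, against 0 to 2669 CPM in the others. Of 9 theca and stroma markers 1 rose (INSL3), with 3 positive and 6 negative and a median of -1.10. Of 14 blood, immune and endothelial markers 2 rose (C1QA and KDR), with 9 positive and 5 negative and a median of 3.76. The part of any of these cells in the difference was not tested.

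Without the granulosa-rich libraries gilt 803 kept 9 oocytes, none of them at stage 4. No member was then called by edgeR, 5 of 14721 genes were, and the direction turned. The median was -0.74 with 11 of 61 members positive, against -0.16 over all genes. COX4I2 then had a log2 difference of 4.05 (edgeR adjusted p = 0.692) and COX7C one of -0.30. Without gilt 205 the COX4I2 call was also lost, at 4.80 and an edgeR adjusted p of 0.0567.

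A count of which gilt led each member was made by stage in nuclear CPM. At stage 1 gilt 803 was highest for 3 of 61 members and lowest for 38, while gilt 205, with 1 oocyte, was highest for 30. At stage 4 gilt 803 was highest for 40 and gilt 205 lowest for 36. At stage 5 gilt 201 was highest for 29 and gilt 803 for 27.

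Genes that work with the complexes were described from the same fits. None of 35 assembly factors tested, 18 genes of mitochondrial transcription and biogenesis, 14 of the tricarboxylic acid cycle or 10 carriers of electrons and adenine nucleotides was called in stage 5 against stage 1 by edgeR. Their medians were -0.02, 0.51, -0.53 and -0.43, and the members with the smallest p were NDUFAF7 (4.69 ± 2.36), POLG (-6.83 ± 2.85), MDH2 (-1.64 ± 0.99) and ETFB (-2.17 ± 1.14). All 13 mitochondrially encoded genes had a negative change, with a median of -0.77, and none was called. In gilt 803 the cycle enzyme SUCLG1 rose (1.80 ± 0.53), as did the carriers SLC25A3 (phosphate; 3.94 ± 0.50), SLC25A6 (ADP and ATP; 1.95 ± 0.45) and ETFDH, which feeds electrons to ubiquinone (4.07 ± 1.14), while 0 assembly factors and 0 biogenesis genes were called. Without the granulosa-rich libraries none of these 4 calls held: the differences were 0.15 for SUCLG1, 1.37 for SLC25A3, 0.77 for SLC25A6 and -4.08 for ETFDH, with edgeR adjusted p-values of 0.993, 0.702, 0.839 and 0.664.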

How the data were processed

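The authors deposited raw counts by Ensembl gene ID, with no normalization, and names for 14857 of 25880 IDs came from an Ensembl name table. A second deposited table is length-scaled, in a unit of its own (other) whose scale per oocyte is not stated. It was used only for ranks and shares within an oocyte, over 57 members. HISAT2 2.1.0, StringTie 1.2.2, Trim Galore 0.4.3 and featureCounts are named, per the submitters' processing notes. Strand setting, annotation and genome build: not given in the sources used here. Positions are therefore left out. All sample columns were matched to labels (0 unmatched).

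CPM are counts per 1000000 of an oocyte's total; nuclear CPM leave the 13 mitochondrially encoded protein genes out of that total. Counts were summed by gilt and stage into 19 sums and fitted over 15637 genes with edgeR 4.0.16 in R 4.3.3 (TMM, filterByExpr by stage, estimateDisp, glmQLFit and glmQLFTest; two-sided, Benjamini-Hochberg adjusted p under 0.05). The model held stage and gilt; its common biological coefficient of variation was 1.236. SE is the log2 change over the root of F. DESeq2 1.42.0 and limma-voom 3.58.1 were alternatives, as were other scaling, no filter, libraries or genes left out, oocytes as libraries and gilts left out in turn. No 2 oocytes had identical counts.

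Gilt was kept as the block because labels name the animal and its oocytes share it. Over pairs of sums, the mean correlation of deviations from stage means was -0.0318 between different gilts; within gilt 803 it was 0.133, within 801 it was 0.141, within 205 it was 0.136 and within 201 it was 0.0124.

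Members, lists and comparisons were chosen with earlier results of these data known. Named are the 2 highest and the lowest member by median level in each complex, the 4 smallest p-values in stage 5 against stage 1, the trend and gilt 803, the 2 smallest in the other tests, every called member and the tissue isoforms; other members named by count, detection or rank were picked with their values in view. The symbols ATP5MC2, ATP5MG, COX6C, NDUFA1, NDUFA7, NDUFA13, NDUFC1 and UQCRB also fit the rule but were not analysed here. The values of 1 member are not reported here singly; it stays in sums, counts and medians.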

Additional observations from a re-analysis of the deposited data

Results flagged for a closer look

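Of 68 groups of 4 gilts at a stage (each complex and all members, on 3 scales), 7 held a gilt that stood far from the other 3. The nominal rate of about 1 in 20 holds for independent, normally distributed groups. The 68 groups are the same sums cut several ways, so the 7 cannot be set against that rate. Most of the 7 trace to 1 oocyte, since the gilt 205 sum at stage 1 is a single library. Its members summed to 11782 CPM, against 2476 to 3364 CPM in the other gilts. In that library complex I had 3565 CPM, against 743 to 949 CPM in the others, and complex III had 805 CPM, against 213 to 286 CPM. Complex IV had 3449 CPM there, against 695 to 983 CPM, and complex V had 3008 CPM, against 681 to 869 CPM. Its mitochondrially encoded share was 18.2%, and with those genes out of the total (nuclear CPM) no gap of this size was found for that library.

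On that second scale, complex III at stage 1 stood at 504 nuclear CPM in gilt 803, against 913 to 985 in the other gilts. At stage 4 complex IV took 45.4% of member counts in gilt 205, against 31.1% to 33.3% in the others, from 2 oocytes.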

How the results depend on the processing

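Of 105 recomputed counts of called members, 86 were unchanged or within 1.5 times, and 19 moved. In stage 2 against stage 1, 1 member was called by DESeq2 (among 413 genes) and without the low-count filter (among 111), and 0 to 1 with 1 gilt left out. In stage 3 against stage 2 and in the F test, 1 was called by DESeq2, without the filter and with each oocyte as a library, and 0 to 1 with 1 gilt left out, 1 without gilt 803. The genes called in these 4 settings were 317, 29, 3 and 7 in stage 3 against stage 2. In the F test they were 47, 216, 34 and 45. Without the filter 1 was called in stage 4 against stage 3, among 14 genes. The member was COX4I2 each time. Against the other gilts, gilt 803 had 1 of 61 members called in the fit reported. With each oocyte as a library it had 10 (9 higher), beside 11.6% of all genes, and with limma-voom 8, beside 9.45%. DESeq2 gave 7 (6 higher), beside 16.0% of all genes, and the fit without the filter gave 2, beside 5.02%. Without granulosa-rich libraries 0 were called, beside 0.034% of genes, and with 1 gilt left out 0 to 2, beside 0.736% to 4.88%. Genes called ran from 5 without granulosa-rich libraries to 2500 with DESeq2. COX4I2 in stage 5 against stage 1 turned to 0.54 with each oocyte as a library, 0.49 with limma-voom and 2.58 with no replicate block; COX7C in gilt 803 turned to -0.30 without granulosa-rich libraries, and the slope of NDUFS5 to 0.0117 with each oocyte as a library. The causes were not tested. With no replicate block for gilt, 0 members were called in every stage comparison, and the members' median in stage 5 against stage 1 was 0.28. The test of slopes that differ between gilts and the gilt 803 comparison need gilt in the model and were not run without it, and the gilt 803 comparison was not run without gilt 803. DESeq2's size factors moved the median of all genes there from -0.27 to -0.41, and that of the members from 0.05 to -0.10. Of the low isoforms, COX4I2 and COX6A2 had counts in 28 oocytes and COX6B2 in 26. The part of depth in this was not tested.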
